A study of Homo sapiens with 4 samples.

Results

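Keratins are the intermediate filament proteins of epithelial cells. Each filament is built from pairs of an acidic type I keratin and a basic to neutral type II keratin, and a keratin without a partner is usually unstable as a protein. KRT8 and KRT18 form the main pair of single-layered epithelia such as the gut lining, KRT19 and KRT20 are further type I keratins of the gut, and KRT7 is a type II keratin of ducts and glands. KRT16 and KRT17 are type I keratins that stratified epithelia switch on under stress or after wounding, and KRT15 is found in the basal layer of stratified epithelia.

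The 10 keratin genes described here (KRT7, KRT8, KRT18, KRT19, KRT20, KRT16, KRT17, KRT80, KRT23 and KRT15) were chosen by their symbols, as keratins of simple epithelia and of stressed or stratified epithelia, out of 19974 genes in the tables. Of these, 7 encode type I and 3 encode type II keratins. They were selected with earlier results of the same contrast known, so their differences between the groups are given as a description. No p is printed for any of them. Where members are said to be past p and fold thresholds, this is description too and not a test of them. HCT116, a human colorectal carcinoma cell line, was transfected at 100 nM for 36 h with a control non-targeting siRNA (si-NC) or with siRNA targeting the long non-coding RNA LINC00152 (si-152), and total RNA was sequenced. Each group had 2 biological replicates, which gives 4 libraries of 1 cell line. LINC00152 itself was not analysed here, and its knockdown in these libraries is therefore unchecked.

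Values were taken to be FPKM, which corrects the fragments of a gene for transcript length and sequencing depth, so that levels can be compared between genes. A library listed 14589 to 14686 genes above 0, and the summed FPKM ran from 424754 to 534311. The read number behind each library was unknown, since the steps of the lowest values did not resolve into single reads, so no counting error could be given. Of 12 colon epithelial markers, EPCAM lay between 191 and 240 FPKM, CLDN4 between 167 and 237 FPKM and the intestinal transcription factor CDX2 between 8.29 and 10.4 FPKM. The differentiated gut markers CDX1 and LGALS4 were listed at 0 in all 4 libraries, and CDH17, VIL1 and GPA33 did not exceed 0.126 FPKM. The summed level of 6 fibroblast markers was 7.11 to 8.13 FPKM, nearly all of it COL1A1, that of 6 leukocyte markers was 3.20 to 3.90 FPKM, mostly CD68, and that of 5 endothelial markers was 0.227 to 0.387 FPKM. The defining leukocyte marker PTPRC was listed at 0 in every library. The summed level of 10 squamous markers was 13.3 to 15.1 FPKM, mostly KRT10 at 11.9 to 14.02 FPKM. Within that list, the squamous master regulator TP63 did not exceed 0.0336 FPKM.

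The 10 genes differ in their place in the genome and in how much sequence they share. All coordinates are from GENCODE v29 on GRCh38, the build named in the submitters' notes. On chromosome 12 lie KRT80 (52168996 to 52192000, minus strand), KRT7 (52232520 to 52252186, plus strand), KRT8 (52897187 to 52949954, minus strand) and KRT18 (52948871 to 52952901, plus strand). KRT18 is the one type I member beside the type II genes. On chromosome 17 lie KRT20 (40875941 to 40885227), KRT23 (40922696 to 40937634), KRT15 (41513743 to 41522529), KRT19 (41523617 to 41528308), KRT16 (41609778 to 41615899) and KRT17 (41619441 to 41624842), all on the minus strand.

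For the 7 type I members, the coding sequence at the end of the central rod domain shows how close they are to each other. This stretch is shown because every keratin ends its rod in a nearly invariant motif. It does not show which genes could exchange reads, and shared sequence is described separately below. Each line gives 54 coding bases, 5′ to 3′ on the coding strand. The 18 bases in capitals encode part of the helix termination motif, which continues into the lower-case bases after them. All windows lie within 1 coding exon, and the part of the motif in capitals was found once in each of the 7 coding sequences.
KRT18 (chr12:52952278-52952331, exon 6 of 7): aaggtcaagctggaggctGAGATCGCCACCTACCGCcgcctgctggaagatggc
KRT19 (chr17:41523785-41523838, exon 6 of 6): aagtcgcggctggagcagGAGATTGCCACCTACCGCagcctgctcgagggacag
KRT15 (chr17:41515480-41515533, exon 6 of 8): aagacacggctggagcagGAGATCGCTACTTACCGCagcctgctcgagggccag
KRT16 (chr17:41610339-41610392, exon 6 of 8): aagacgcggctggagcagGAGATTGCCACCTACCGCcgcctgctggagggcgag
KRT17 (chr17:41620667-41620720, exon 6 of 8): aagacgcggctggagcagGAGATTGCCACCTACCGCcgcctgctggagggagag
KRT20 (chr17:40878153-40878206, exon 6 of 8): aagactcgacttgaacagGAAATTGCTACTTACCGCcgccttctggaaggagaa
KRT23 (chr17:40925362-40925415, exon 7 of 9): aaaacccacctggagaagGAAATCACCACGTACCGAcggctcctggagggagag

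Any 2 of these windows differed at 1 to 20 of the 54 bases, with a median of 13 over 21 pairs. KRT16 and KRT17 differed at 1 base here, and KRT19 differed from KRT17 at 4 bases and from KRT16 at 5. Over the whole coding sequence, KRT16 and KRT17 were the closest pair among all 10 members, with 71.5% identical columns. Within a type the identity ran from 52.6% to 71.5%, and between types from 44.2% to 50.04%.

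Shared sequence limits how firmly reads can be assigned to some of these genes. Windows of 50 bases were taken from 1 principal transcript of each gene and looked up, on either strand, in the transcripts of all other genes. Of the KRT18 windows, 47.6% were also in another gene, including 43 KRT18 pseudogenes. KRT8 shared 37.1% of its windows with 38 other genes, 33 of them KRT8 pseudogenes. Of the shared KRT18 windows, 326 were in KRT8 transcripts, whose exons overlap those of KRT18 by 525 bases on the opposite strand. KRT16 shared 22.01% of its windows, most with its pseudogene KRT16P3 and with KRT14, and KRT17 shared 17.4%. KRT7 shared 10.8%, mostly with its antisense gene KRT7-AS. The shares were 4.95% for KRT23, 1.79% for KRT19, 0.420% for KRT80, 0.328% for KRT15 and 0 for KRT20. How the authors counted shared or antisense reads is not given in the sources used here, so the levels of KRT8, KRT18, KRT16 and KRT17 are less certain than those of KRT19, KRT15 and KRT80.

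Ranked by mean FPKM, the order in HCT116 was KRT19, KRT8, KRT18, KRT7, KRT15, KRT80, KRT16, KRT23, KRT17 and KRT20. The top 3 made up 96.1% to 96.7% of the summed level of the 10 genes in each library. KRT19, the shortest keratin by coding sequence in this group at 1203 bases, ranked between 67 and 72 among all genes across the libraries. KRT19 was above KRT8 in 3 of the 4 libraries, so the first 2 places were not separated. KRT8 exceeded KRT18 within every library, by 1.27 to 1.501 times, although the ranges of the 2 genes over all 4 libraries overlapped. KRT18 then exceeded KRT7 by 8.41 to 12.1 times. From KRT18 down to KRT23 no 2 neighbouring genes had overlapping ranges, while those of KRT23 and KRT17 overlapped. The plot of levels by library shows that the steps between genes were larger than the spread between libraries for most of the list.

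**Figure D1:**
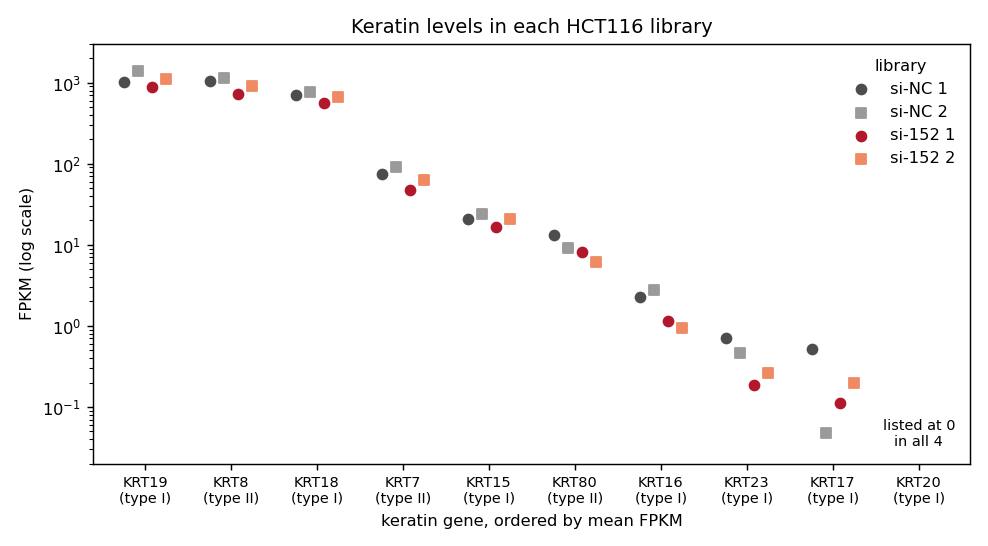
FPKM of each keratin gene (vertical axis, log scale) in the 4 libraries, with the genes on the horizontal axis ordered by mean level. Grey symbols are si-NC and red or orange symbols si-152, with circles for replicate 1 and squares for replicate 2. KRT19, KRT8 and KRT18 lie between 567 and 1378 FPKM, and KRT20 was listed at 0 in every library.

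The type II keratins were lower with si-152 than with si-NC in both replicates. KRT8, the type II partner of KRT18, measured 1046 and 1138 FPKM in the controls and 718 and 912 FPKM in the si-152 libraries. Both si-152 libraries lay below both si-NC libraries, and the group means were 1092 ± 64.7 and 815 ± 137 FPKM (SD, n = 2 each). The log2(FPKM + 1) difference, si-152 minus si-NC, was -0.43 with a standard error (SE) of 0.28 from the fit across all genes. It was -0.26 without si-152 replicate 1 and -0.60 without si-152 replicate 2.

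KRT7 measured 74.4 and 90.4 FPKM with si-NC against 46.8 and 62.4 FPKM with si-152. The groups did not overlap, the si-152 mean was 66.3% of the si-NC mean, and the log2 difference was -0.59 (SE 0.20), or -0.39 without si-152 replicate 1. KRT80, a type II keratin of many epithelia, measured 13.1 and 9.22 FPKM with si-NC and 8.17 and 6.08 FPKM with si-152. Here too both si-152 values were below both si-NC values, with a mean of 63.8% of the control and a log2 difference of -0.58 (SE 0.22). That difference was -0.34 without si-NC replicate 1 and -0.39 without si-152 replicate 2. KRT80 was higher in replicate 1 than in replicate 2 in both groups, the reverse of KRT7 and KRT8.

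Of the abundant type I keratins, KRT18 measured 697 and 760 FPKM with si-NC and 567 and 667 FPKM with si-152. The groups did not overlap, the si-152 mean was 84.7% of the si-NC mean, and the log2 difference was -0.24 (SE 0.25). Without si-152 replicate 1 this became -0.13, and without si-152 replicate 2 it became -0.36. KRT19 measured 1016 and 1378 FPKM with si-NC and 877 and 1122 FPKM with si-152. These groups overlapped, since si-152 replicate 2 was above si-NC replicate 1. The log2 difference of KRT19 was -0.25 (SE 0.31), and it depended on single libraries. It was -0.03 without si-NC replicate 2, -0.08 without si-152 replicate 1, -0.47 without si-NC replicate 1 and -0.43 without si-152 replicate 2.

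KRT15 measured 21.0 and 23.9 FPKM with si-NC and 16.4 and 21.1 FPKM with si-152, groups that overlapped narrowly. Its log2 difference was -0.26 (SE 0.18), or -0.08 without si-152 replicate 1, -0.17 without si-NC replicate 2 and -0.43 without si-152 replicate 2. KRT16, the stress keratin, measured 2.27 and 2.79 FPKM with si-NC against 1.15 and 0.949 FPKM with si-152. It had the largest proportional gap among the 7 keratins with sufficient values, at 41.5% of the control mean, and a log2 difference of -0.78 (SE 0.20). At this low level the added 1 compresses the difference, which was -1.19 when 0.1 was added instead.

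The other 3 type I members were too low for the fit, which required at least 1 FPKM in at least 2 libraries. KRT23 measured 0.704 and 0.463 FPKM with si-NC and 0.187 and 0.261 FPKM with si-152, and did not overlap between groups. KRT17 measured 0.517 and 0.0477 FPKM with si-NC and 0.111 and 0.195 FPKM with si-152, so the si-152 values lay between the 2 controls. KRT20, the type I keratin of differentiated gut epithelium, was listed at 0 in all 4 libraries.

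The labels number the replicates 1 and 2 in each group but give no shared day or batch, so the pairs below set libraries side by side by number only. Within pair 1 the log2 differences of the 7 keratins ran from -0.66 (KRT7) to -0.21 (KRT19), and within pair 2 from -0.96 (KRT16) to -0.17 (KRT15). The median over the 7 was -0.54 in pair 1 and -0.32 in pair 2, while the medians over all 11222 genes in the fit were -0.03 and 0.07. All 7 were lower with si-152 in both pairs, a pattern shown by 27.3% of all genes in the fit. In 5 of the 7 both si-152 libraries lay below both si-NC libraries, as they did for 13.9% of all genes. KRT7 and KRT16 were past an unadjusted limma p of 0.05 and a 1.5-fold difference on the lower side, where 1.06% of all genes were. KRT16 entered the fit through its si-NC values, since it measured 1.15 and 0.949 FPKM with si-152. It dropped out when 1 FPKM was required in every library. None of the 7 was past both on the higher side, where 0.597% of all genes were. KRT7 was not past both without si-NC replicate 2 or without si-152 replicate 1, in fits that assume the lone library left in a group varies like the other group. Since the contrast was known when the keratins were chosen, these shares describe the members and their background only. In bulk RNA, fewer cells carrying a keratin and less of its RNA per cell cannot be told apart.

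**Figure D2:**
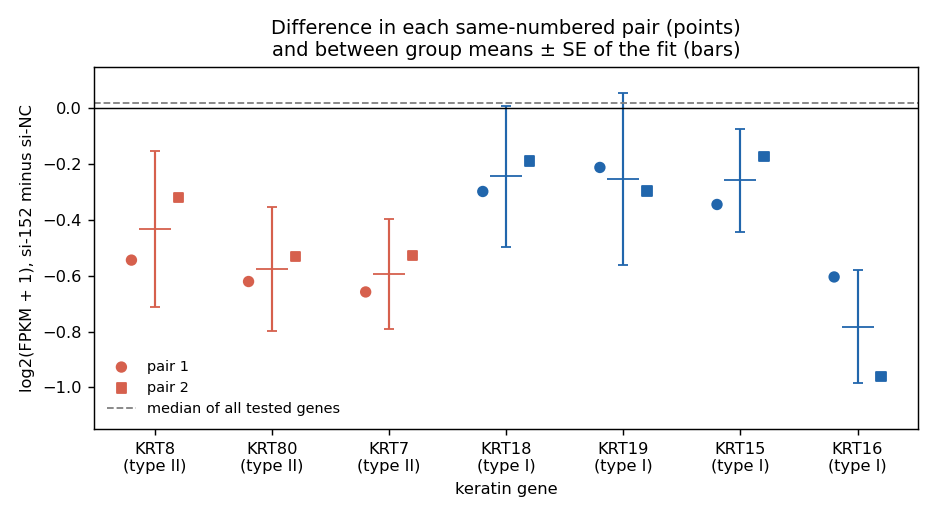
Difference in log2(FPKM + 1), si-152 minus si-NC (vertical axis), for the 7 keratins in the fit. Circles and squares are same-numbered pairs 1 and 2, horizontal bars with whiskers the difference of group means ± SE of the fit, red type II and blue type I. All 14 points lie below 0 and below the dashed median of all tested genes, and KRT16 in pair 2 is the lowest at -0.96.

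Type I and type II genes were set side by side, without a test of their difference. The 3 type II members had pair differences of -0.32 or lower in all 6 pair values. KRT18, KRT19 and KRT15 had pair differences no lower than -0.34. These ranges met at KRT8 in pair 2 and KRT15 in pair 1, and KRT16, a type I gene, stood at -0.60 and -0.96. Summed FPKM of the 7 type I genes was 1737 and 2165 with si-NC and 1462 and 1812 with si-152, or 83.9% of the control mean. The sum of the 3 type II genes was 1134 and 1238 with si-NC and 773 and 980 with si-152, or 73.9%. Together the 10 genes took 0.620% and 0.637% of the summed FPKM with si-NC and 0.526% and 0.551% with si-152.

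The ratio of KRT8 to its partner KRT18 was 1.501 and 1.497 with si-NC, and 1.27 and 1.37 with si-152. Both si-152 ratios lay below the controls, which were nearly equal. KRT7 relative to KRT18 was 0.107 and 0.119 with si-NC and 0.0825 and 0.0936 with si-152, also without overlap. Between the 2 type I genes KRT19 and KRT18 the ratio was 1.46 and 1.81 with si-NC and 1.55 and 1.68 with si-152, and the si-152 values lay inside the control range. A ratio within a library is unchanged by a single scaling factor, but quantile normalization alters it. After quantile normalization, KRT8 differed by -0.40 in pair 1 and -0.21 in pair 2, and KRT18 by -0.16 and -0.18, so that in pair 2 the gap between the partners nearly closed.

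The summed type I to type II ratio was 1.53 and 1.75 with si-NC and 1.89 and 1.85 with si-152, so both si-152 libraries were above both controls. On the log2 scale the group difference was 0.19, with 0.30 in pair 1 and 0.08 in pair 2, against an SD of 0.14 between the si-NC libraries. Without si-NC replicate 1 it was 0.096 and without si-NC replicate 2 it was 0.29, so its size depended on the control library. The sums are mostly KRT8 for type II and KRT19 and KRT18 for type I. With each keratin in the fit weighted equally, the mean log2 difference of type I was -0.36 in pair 1 and -0.40 in pair 2. That of type II was -0.61 and -0.46, so the types were close in pair 2. With 2 libraries a group, an exact 2-sided permutation test cannot give a p below 0.333, and no test was made. The KRT8 and KRT18 exon overlap and the shared pseudogene sequence bear on the summed ratio, and their part in it was not tested.

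**Figure D3:**
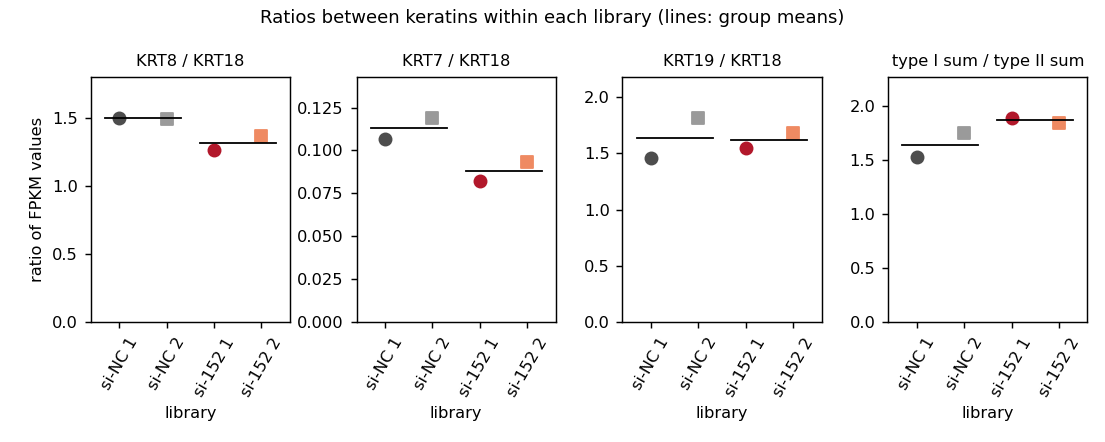
Ratios of FPKM values within each library (vertical axes, starting at 0) for KRT8 over KRT18, KRT7 over KRT18, KRT19 over KRT18 and the type I sum over the type II sum. Points are libraries and black lines group means. KRT8 over KRT18 is 1.501 and 1.497 with si-NC and 1.27 and 1.37 with si-152, and KRT19 over KRT18 overlaps between the groups.

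By position, most members have another member close by. KRT80 and KRT7 lie near each other and differed by -0.58 and -0.59, whereas KRT8 and KRT18 overlap at their 5′ ends and differed by -0.43 and -0.24. KRT15 and KRT19 are neighbours with differences of -0.26 and -0.25, and 2 further neighbours, KRT16 and KRT17, stood at 1.79 and 0.218 FPKM on average. Outside the keratins, 14 measured genes lie within 100 kb of a member, 6 of them keratin-associated protein genes listed at or near 0. Of the 5 that entered the fit, 3 were lower and 2 higher with si-152, 0 had an unadjusted limma p under 0.05, and the median log2 difference was -0.01. In 1 of the 5, TNS2, both si-152 libraries lay below both si-NC libraries, as they did for 13.9% of all genes. TNS2 had a log2 difference of -0.17 (SE 0.20), TMEM99 one of 0.18 (SE 0.23) and ATG101 one of 0.10 (SE 0.21). EIF1, a translation initiation factor near KRT17, measured 672 and 759 FPKM with si-NC and 664 and 674 FPKM with si-152 (log2 difference -0.09, SE 0.25). EIF4B, another initiation factor near KRT18, measured 149 and 134 FPKM with si-NC and 147 and 134 FPKM with si-152 (-0.01, SE 0.18). This set was picked by position after the tables had been read.

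**Figure D4:**
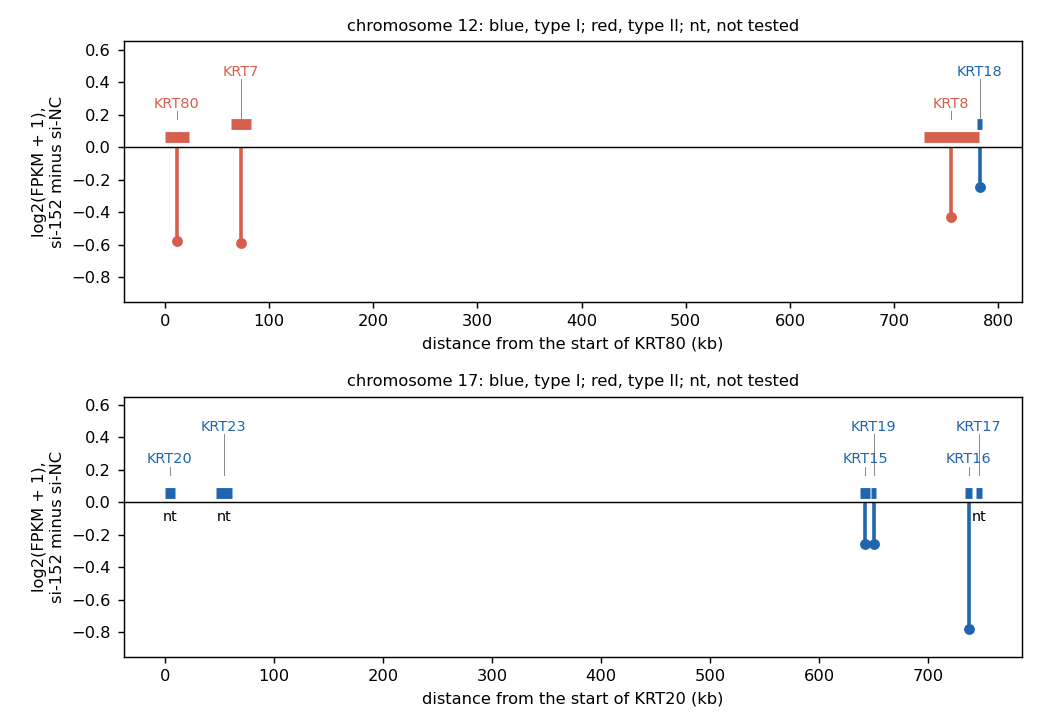
Members on chromosomes 12 and 17, as distance in kb from the first member (horizontal axis), with their difference in log2(FPKM + 1), si-152 minus si-NC, as vertical lines. Boxes are gene bodies, upper for the plus and lower for the minus strand, and nt marks genes too low for the fit. KRT8 and KRT18 overlap at one end of the chromosome 12 group, and KRT16 reaches -0.78.

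Most other keratins were at or near 0. Of 45 further keratin genes, 27 were listed at 0 in all 4 libraries, 14 stayed below 1 FPKM in every library, and 4 averaged at least 1 FPKM. KRT10, a type I keratin of differentiating epidermis, measured 11.9 and 14.02 FPKM with si-NC and 12.1 and 12.9 FPKM with si-152, with a log2 difference of -0.04 (SE 0.18). The hair keratin KRT81 measured 3.53 and 3.07 FPKM with si-NC and 2.21 and 2.57 FPKM with si-152 (-0.34, SE 0.20), a difference that did not pass the test. KRT222 was at 1.93 to 2.32 FPKM, and KRT86, whose gene body overlaps KRT7, at 0.986 to 1.62 FPKM. The usual type II partners of KRT16 and KRT17 and the basal pair KRT5 and KRT14 were close to 0: KRT6A, KRT6B, KRT6C, KRT5 and KRT14 together summed to 0.335 and 0.296 FPKM with si-NC and 0.0771 and 0.0905 FPKM with si-152. KRT5 was the highest of them at 0.269 and 0.135 FPKM with si-NC and 0.0535 and 0.0335 FPKM with si-152.

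Genes that anchor, modify or resemble keratin filaments had median differences closer to 0 than the keratins had. Of 8 other intermediate filament genes in the fit, 7 were lower and 1 higher with si-152, with a median of -0.14, and 0 passed both thresholds, while 1 had an unadjusted limma p under 0.05. In 4 of the 8 both si-152 libraries lay below both si-NC libraries, as they did for 13.9% of all genes. LMNB2, a nuclear lamin, measured 47.9 and 43.0 FPKM with si-NC and 31.7 and 29.7 FPKM with si-152 (-0.55, SE 0.16). It was the gene with the low unadjusted p, and it fell short of 1.5-fold. The lamin LMNA measured 203 and 183 FPKM with si-NC and 198 and 179 FPKM with si-152 (-0.04, SE 0.19), and LMNB1 had a difference of -0.15 (SE 0.16). SYNM and PRPH, an intermediate filament protein of muscle and one of neurons, had differences of -0.35 (SE 0.21) and -0.28 (SE 0.30).

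Among 15 linkers that tie keratins to desmosomes and hemidesmosomes, 5 were lower and 10 higher, the median was 0.08, and 0 had an unadjusted limma p under 0.05. PLEC, the plakin of hemidesmosomes, had a difference of 0.19 (SE 0.23), JUP (plakoglobin) one of 0.06 (SE 0.17) and the integrin subunit ITGB4 one of -0.09 (SE 0.19). Larger values were seen for the plakin PPL (-0.47, SE 0.26), the desmocollin DSC2 (0.38, SE 0.20) and the desmoglein DSG2 (0.32, SE 0.27), and none of these passed the test.

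Of 19 keratin-modifying and binding proteins, 6 were lower and 13 higher, with a median of 0.07. Of these, 1 passed both thresholds, on the lower side, where 1.06% of all genes were. YWHAE, a 14-3-3 protein, measured 8.81 and 23.0 FPKM with si-NC and 2.50 and 5.19 FPKM with si-152, a log2 difference of -1.72 (SE 0.39, limma, Benjamini-Hochberg adjusted p = 0.595). The 2 controls of YWHAE were far apart, although both lay above both si-152 libraries. CASP6, a caspase that cuts type I keratins in apoptosis, and the stress kinase MAPK14 had differences of 0.36 (SE 0.19) and 0.31 (SE 0.18), and neither passed the test. The most abundant of this list, YWHAZ, SFN and YWHAQ, had differences of 0.09 (SE 0.24), -0.02 (SE 0.25) and 0.13 (SE 0.18).

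Of 26 transcription factors known to act on keratin genes, 12 were lower and 14 higher, with a median of 0.0018. An unadjusted limma p under 0.05 was found for 3, and 2 passed both thresholds, on the higher side, where 0.597% of all genes were. The AP-1 subunit JUN measured 44.3 and 41.5 FPKM with si-NC and 68.5 and 67.9 FPKM with si-152, a log2 difference of 0.66 (SE 0.16, limma, Benjamini-Hochberg adjusted p = 0.621). Its partner FOS measured 2.16 FPKM in both si-NC libraries and 4.04 and 4.01 FPKM with si-152, a difference of 0.67 (SE 0.19, limma, Benjamini-Hochberg adjusted p = 0.760). Both groups were tight and did not overlap for either gene. The epithelial factor KLF4 had a difference of -0.51 (SE 0.18), short of 1.5-fold. JUND, CEBPB and JUNB, the most abundant of the list, had differences of -0.02 (SE 0.22), -0.05 (SE 0.19) and 0.06 (SE 0.20).

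Colon epithelial markers had a smaller median difference than the keratins. Of 7 in the fit, 6 were lower and 1 higher, with a median of -0.09, and 0 had an unadjusted limma p under 0.05. In 2 of the 7, CLDN4 and ESRP1, both si-152 libraries lay below both si-NC libraries, as they did for 13.9% of all genes. EPCAM measured 232 and 223 FPKM with si-NC and 191 and 240 FPKM with si-152 (-0.09, SE 0.20), and CLDN7 had a difference of -0.05 (SE 0.19). CLDN4 (-0.26, SE 0.21), ESRP1 (-0.30, SE 0.19) and CLDN3 (-0.48, SE 0.30) had the larger values, and none passed the test. The only fibroblast, leukocyte and squamous markers in the fit, COL1A1, CD68 and KRT10, had differences of -0.01, 0.17 and -0.04.

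**Figure D5:**
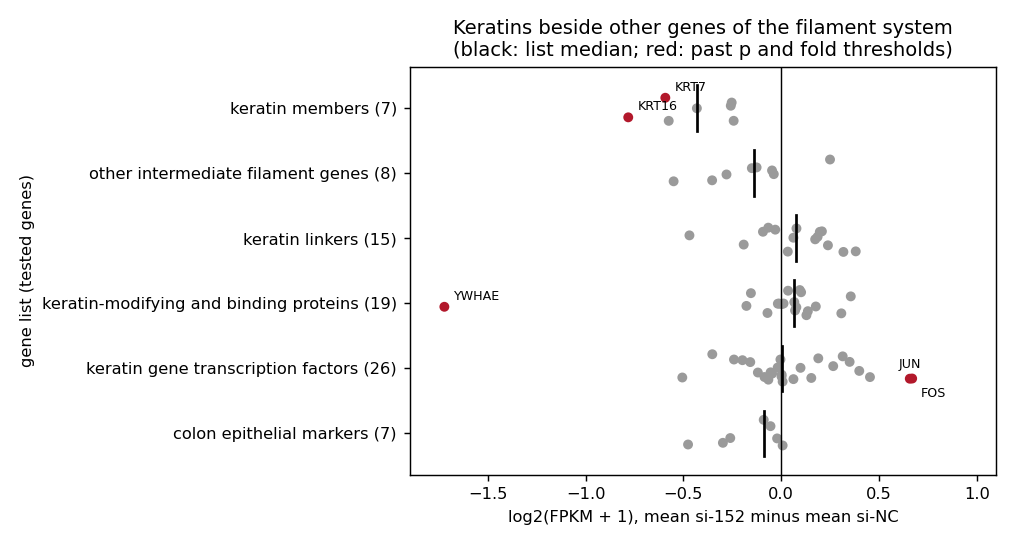
Difference in log2(FPKM + 1), mean si-152 minus mean si-NC (horizontal axis), for the tested genes of 6 lists (rows, number of genes in brackets). Each point is a gene, black bars are list medians and red points are past an unadjusted p of 0.05 and 1.5-fold. The median of the 7 keratins is -0.43, and the medians of the other 5 lists plotted lie between -0.14 and 0.08.

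The genes outside the keratins whose levels ran most like the mean of the 7 keratins over the 4 libraries were MECR, C1orf50, OSR2, POLE4 and RCN1, by the distance between centred log2(FPKM + 1) values. The distances ran from 0.0288 to 0.0489. MECR, a mitochondrial fatty acid synthesis enzyme, measured 11.2 and 12.1 FPKM with si-NC and 7.70 and 8.60 FPKM with si-152, and RCN1 measured 164 and 172 FPKM with si-NC and 114 and 130 FPKM with si-152. With 4 libraries, profiles this close can arise in many genes, and nothing about function is drawn from them.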

How the data were processed

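Total RNA of 4 HCT116 libraries (2 si-NC, 2 si-152) was sequenced, and groups came from the labels. For each library the authors deposited a table of gene symbols with 1 value each, taken as FPKM from the values (decimals, exact zeros, unequal sums). The submitters' notes name Trimmomatic, TopHat, HISAT2, HTSeq, DESeq and GRCh38 without roles. Counting parameters, read length and strandedness are not given in the sources used here. A test on counts was not possible.

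Here, log2(FPKM + 1) was fitted with limma 3.58.1 (R 4.3.3, mean-variance trend, Benjamini-Hochberg adjustment) for the 11222 genes that reached 1 FPKM in 2 or more libraries. The script was tested on simulated data. Keratins, lists and tests were chosen with earlier results of these data known. The text names all 10 keratins, other keratins averaging at least 1 FPKM and, for each list, genes past both thresholds, the 3 most abundant and the 3 largest differences (marker lists besides colon are given as sums). The 5 most similar profiles were found by Euclidean distance. Sequences came from GENCODE v29 (Biopython 1.88). Pseudocount, filter, scaling, block and left-out libraries were varied. One member of a gene list and some sequences are not reported here.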

Additional observations from a re-analysis of the deposited data

How the results depend on the processing

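With 0.1 added or under the 3 other scalings, 27 of 28 keratin values moved by less than the spread between replicates and 0 changed sign. The exception was KRT16 with 0.1 added (-1.19). The median over the 7 ran from -0.47 to -0.26. It was lowest in size without si-152 replicate 1 (-0.26). With no filter it was -0.37 over the members listed above 0 in any library, which leaves out KRT20 (an alternative chosen after seeing the data). KRT19 was at -0.04 after quantile normalization. The 7 were lower in both pairs under each of 4 scalings. Which members were past p and fold changed: KRT7 was not without si-NC replicate 2 or si-152 replicate 1, with libraries scaled to an equal sum or after quantile normalization. KRT80 was with 0.1 added, with size factors, after quantile normalization and without either of those libraries, and KRT16 was left out when 1 FPKM was required in every library. The type I to type II difference ran from 0.096 to 0.29. Over all genes, 67 were past the thresholds on the higher and 119 on the lower side (186 in all), and the total ran from 242 to 546 with 1 library left out (443 without si-NC replicate 1, 314 without si-NC replicate 2, 242 without si-152 replicate 1, 546 without si-152 replicate 2). Scaling to an equal sum turned the split to 106 higher and 66 lower, with the median of all genes shifted to 0.11, against which KRT8 was at -0.33. At an adjusted p under 0.05, 2 genes were called. With 1 library left out, the lone library of its group is assumed to vary like the other group, so these calls are not equal tests. The list count of 3 became 5, 7, 6 and 6 without si-NC replicate 1, si-NC replicate 2, si-152 replicate 1 and si-152 replicate 2, a range of 5 to 7. The cause was not tested. Deviations of same-numbered libraries correlated at 0.52. With the replicate block, 79 genes were higher and 130 lower, 78 at an adjusted p under 0.05, and the list count was 3. The keratin median (-0.43) is the same with the block by construction. With 2 pairs, these values cannot show whether the libraries were paired by design.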
